A study of Mus musculus with 11 samples.

Results

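The regions described here are 8020 stretches of open chromatin that scored highest in mouse embryonic stem cells of the congenic line D2-13B6. They are called D2-13B6-high regions below. They were selected on the measured counts themselves: counts were divided by each library's total and multiplied by 1000000 (CPM), and a region on chromosomes 1 to 19 other than 11 and 13 was kept by 3 criteria. Its D2-13B6 mean had to reach 1 CPM and at least 2 times the mean of each of the other 3 lines, and its lowest D2-13B6 library had to exceed the highest of the other 8 libraries. The table held 248336 regions, of which 213345 lay on these chromosomes and 141970 of those had a D2-13B6 mean of at least 1 CPM. The D2-13B6-high regions were 5.65% of the last number.

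The assay was ATAC-seq: a transposase, Tn5, places sequencing adapters where DNA is open. Each library came from 100000 cells by the FAST-ATAC protocol. The B6 line came from the inbred strain C57BL/6J and the D2 line from DBA/2J, with 3 libraries each. B6-13D2 is the strain B6.D2-(rs30079041-rs51756099)/Bakr, a B6 background that carries a D2 interval of chromosome 13, with 2 libraries. D2-13B6 is the reciprocal congenic strain, a D2 background that carries a B6 interval of chromosome 13 beginning at rs29224292, with 3 libraries. Its sample labels end the interval at rs13469455 and the series text at rs51756099. All lines were cultured alike in 15% serum with LIF, 1 µM of the MEK inhibitor PD0325901 and 3 µM of the GSK3 inhibitor CHIR99021. The design asks how exchange of the interval affects accessibility elsewhere in the genome. Each genotype was 1 cell line and its libraries were labelled technical replicates, so errors and p-values reflect only how libraries of 1 line differ, and cell line and genotype cannot be told apart. Library totals ran from 15198496 to 43042955 counts in regions, with the D2 and D2-13B6 libraries the deeper ones, and 3 counts corresponded to 0.0697 to 0.197 CPM.

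AP-1 is a dimer of Jun and Fos family proteins that binds a short palindromic DNA motif. Its subunits are induced downstream of growth factor signalling through the MEK and ERK kinases, and it commonly acts at enhancers far from promoters, often beside TEAD and RUNX factors. Mouse embryonic stem cells in the naive state depend instead on factors such as Oct4 (Pou5f1), Sox2, Nanog and Esrrb, and inhibitors of MEK and GSK3 are used to hold them there. Fibroblasts, which many laboratories use as feeder cells for stem cells, are a classic cell type with high AP-1 activity.

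Central stretches of 8 D2-13B6-high regions are printed first because a single short motif recurred in them. Each is 160 bases of the plus strand of GRCm38, and capitals mark matches to the AP-1 motif TGANTCA, where N is any base. The first 3 have the highest ratios of D2-13B6 to the next line at a D2-13B6 mean of at least 2 CPM, the following 3 are promoter regions with the highest ratios, and the last pair was added after values were seen to show a region near a fibroblast collagen gene and the region with the highest D2-13B6 mean.
Lrrc32, chr7:98514464-98514623: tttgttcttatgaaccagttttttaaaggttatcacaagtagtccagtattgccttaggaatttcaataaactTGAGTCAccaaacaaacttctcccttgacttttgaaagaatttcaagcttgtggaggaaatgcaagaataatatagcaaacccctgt
Utrn, chr10:12147464-12147623: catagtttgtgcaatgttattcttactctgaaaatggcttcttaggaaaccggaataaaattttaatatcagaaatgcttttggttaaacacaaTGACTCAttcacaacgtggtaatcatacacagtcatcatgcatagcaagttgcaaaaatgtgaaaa
Phip, chr9:83037675-83037834: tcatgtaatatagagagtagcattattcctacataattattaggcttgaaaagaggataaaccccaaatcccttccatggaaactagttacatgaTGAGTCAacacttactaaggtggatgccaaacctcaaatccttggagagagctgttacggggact
Rcan2, chr17:44026603-44026762: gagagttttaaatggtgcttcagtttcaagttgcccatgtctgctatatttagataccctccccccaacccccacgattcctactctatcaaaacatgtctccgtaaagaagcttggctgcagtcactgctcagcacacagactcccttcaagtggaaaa
Fbxo34, chr14:47506870-47507029: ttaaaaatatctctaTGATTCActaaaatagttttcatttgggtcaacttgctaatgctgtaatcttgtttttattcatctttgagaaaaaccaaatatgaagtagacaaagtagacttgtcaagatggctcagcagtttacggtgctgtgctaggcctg
Cytip, chr2:58161075-58161234: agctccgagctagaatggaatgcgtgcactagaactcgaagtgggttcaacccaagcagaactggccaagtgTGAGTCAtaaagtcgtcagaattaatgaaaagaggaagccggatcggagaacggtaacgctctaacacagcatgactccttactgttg
Col5a1, chr2:27810089-27810248: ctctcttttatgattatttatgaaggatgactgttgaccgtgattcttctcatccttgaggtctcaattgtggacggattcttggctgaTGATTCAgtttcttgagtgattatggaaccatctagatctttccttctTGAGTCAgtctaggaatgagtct
Camk2d, chr3:126831594-126831753: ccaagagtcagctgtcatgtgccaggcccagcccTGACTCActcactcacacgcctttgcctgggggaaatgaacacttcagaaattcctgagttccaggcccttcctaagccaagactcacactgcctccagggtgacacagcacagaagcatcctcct
A motif match was present in the printed stretch of 7 of the 8, and the Rcan2 promoter region had none there. These letters are a description of the sequence and do not show that a protein was bound.

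The name given to the set, regions opened only in D2-13B6, was not borne out by the levels. The median D2-13B6-high region stood at 1.39 CPM in B6, 1.28 CPM in B6-13D2, 2.58 CPM in D2 and 5.82 CPM in D2-13B6. D2 was therefore an intermediate line, and D2-13B6 added to a level that was already above that of B6. Other regions of at least 1 CPM had medians of 3.11, 3.08, 2.86 and 2.55 CPM in the same order of lines. Library by library, the median was 1.32, 1.38 and 1.45 CPM in B6, 1.30 and 1.28 CPM in B6-13D2, 2.29, 2.84 and 2.60 CPM in D2, and 5.51, 6.43 and 5.52 CPM in D2-13B6. The B6-13D2 medians lay slightly below all B6 medians, while the D2 libraries all lay above both lines and below all D2-13B6 libraries. Together these regions took 1.39% ± 0.0872 of the counts of B6 libraries (SD, n = 3) and 1.24% ± 0.0242 of those of B6-13D2 (SD, n = 2). The D2 share was 2.64% ± 0.269 (SD, n = 3), and the D2-13B6 share was 5.85% ± 0.611 (SD, n = 3). Since the selection used these libraries, the D2-13B6 values describe the choice and carry no test. No region was silent in D2: each had more than 3 counts in every D2 library. In B6 replicates 1, 2 and 3, 13, 86 and 20 regions had 3 or fewer counts. The D2 libraries were deeper: 3 counts stood at 0.0754 to 0.0859 CPM in D2 and at 0.197 CPM in B6 replicate 2. These counts therefore do not compare accessibility between the lines.

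**Figure D1:**
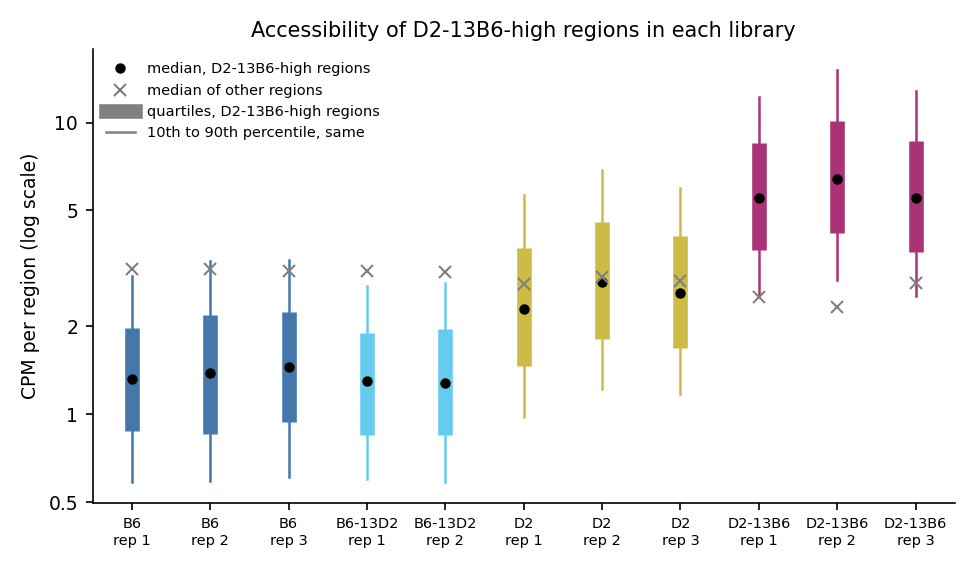
Accessibility of the 8020 D2-13B6-high regions in each of the 11 libraries, in CPM on a log axis. Points are medians, thick bars quartiles, thin lines the 10th to 90th percentile, and crosses the medians of other regions of at least 1 CPM. The D2 medians, 2.29 to 2.84 CPM, lie between those of B6 (1.32 to 1.45 CPM) and D2-13B6 (5.51 to 6.43 CPM).

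The excess over the next line was mostly close to the 2-fold minimum. The ratio of the D2-13B6 mean to the highest other mean had a median of 2.20 and a maximum of 3.78. It reached 2.5 in 1074 regions (13.4%) and 3 in 89 (1.11%). D2 was the second highest line in 7818 regions (97.5%), B6-13D2 in 110 and B6 in 92. Against B6 the D2-13B6 mean was a median of 4.24 times higher, and D2 lay a median of 27.2% of the way from B6 to D2-13B6. In the edgeR fit, which scales by TMM (trimmed mean of M-values) in place of library totals, D2-13B6 was a median of 1.33 log2 units above D2 in these regions, and all 8020 were called higher with 15.2% of all tested regions called; the selection used that contrast, and nothing is read from it. At the edge of the 2-fold minimum, an intronic region near Pitpnm2 just inside had 6.30, 9.81 and 7.54 CPM in the D2-13B6 libraries and 3.37, 4.73 and 3.72 CPM in D2. An intronic region near Aqp1 just outside had 4.74, 4.73 and 4.63 CPM in D2-13B6 and 2.14, 2.65 and 2.26 CPM in D2. The other region just inside, nearest to Myc, had 1.58, 1.51 and 1.92 CPM in D2-13B6 and 0.955, 0.811 and 0.544 CPM in D2. The other just outside, nearest to Lima1, had 19.5, 27.8 and 24.9 CPM in D2-13B6 and 12.4, 14.5 and 9.13 CPM in D2. In the 2 just outside, the D2-13B6 libraries also lay above all D2 libraries, as the selection required of the 2 just inside. Levels differed widely between the 4 regions.

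One D2-13B6 library stood above the others of its line. Replicate 2 was the highest of the 3 in 5916 D2-13B6-high regions (73.8%), compared with 20.4% of all regions on the same chromosomes. Without it the rule found 5705 regions, of which 96.7% had D2 above both B6 and B6-13D2 and 60.2% held an AP-1 match. Scaling moved the number of regions more than any library did: 14348 met the rule with TMM-scaled totals and 16619 with the median-ratio size factors of DESeq2. All but 1 of the 8020 were among the former, and all were among the latter.

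The selection bounded B6, B6-13D2 and D2 only from above and required no order among these 3 lines. It did use their libraries, so the comparisons below are not independent of the selection. D2 exceeded B6 in most D2-13B6-high regions. By edgeR's quasi-likelihood test with Benjamini-Hochberg adjustment over the 246840 regions tested, 6440 of the 8020 (80.3%) were higher in D2 than in B6, against 13.7% of all tested regions. None of the 8020 was lower, against 8.8% of all tested regions. At an unadjusted p under 0.05, 7105 of the 8020 were higher and 0 lower, and 80546 of all 246840 tested regions differed in either direction. DESeq2 called 5961 higher and also none lower. The median log2 fold change was 1.04 in D2-13B6-high regions and -0.01 over all tested regions. Every D2 library was above every B6 and B6-13D2 library in 5710 (71.2%), against 12.8% of all regions. How far the selection itself raised the share with D2 above B6 was not tested.

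Vgll3 and Trhr held the regions with the smallest p-values in this comparison. In an intron at Vgll3, which encodes a cofactor of TEAD factors, a region at chr16:65818704-65819322 had 3.99, 2.43 and 4.03 CPM in B6, 4.15 and 3.78 CPM in B6-13D2, 10.3, 12.4 and 12.3 CPM in D2, and 20.3, 27.5 and 24.5 CPM in D2-13B6. The D2 libraries did not overlap those of B6 or B6-13D2. D2 exceeded B6 by 1.84 on the log2 scale (SE 0.20, edgeR adjusted p = 2.49e-11). An intergenic region 19770 bp from the start of Trhr, the receptor for thyrotropin-releasing hormone, had 1.25, 1.45 and 1.45 CPM in B6, 1.90 and 1.54 CPM in B6-13D2, 4.22, 5.38 and 5.81 CPM in D2, and 11.7, 11.2 and 10.4 CPM in D2-13B6. It lies at chr15:44175953-44176365, and its log2 fold change between D2 and B6 was 2.03 (SE 0.22, edgeR adjusted p = 5.01e-11). At both sites D2 lay above B6 and B6-13D2 and below D2-13B6, as in the median region. Unlike in the median region, B6-13D2 had a higher mean than B6. These means were 3.96 CPM in B6-13D2 and 3.49 CPM in B6 at Vgll3, and 1.72 and 1.38 CPM near Trhr.

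**Figure D2:**
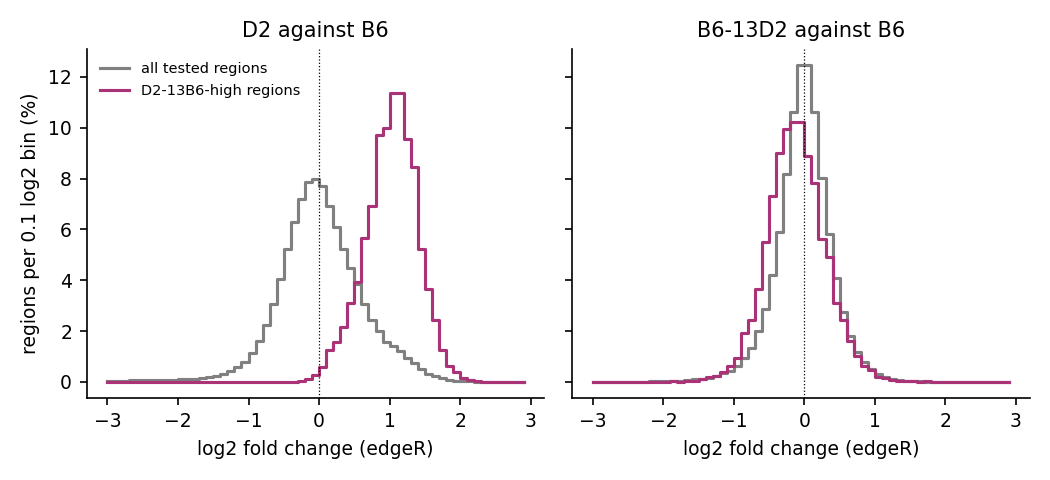
Distribution of edgeR log2 fold changes in 0.1-wide bins for D2 against B6 (left) and B6-13D2 against B6 (right), as a percentage of the 8020 D2-13B6-high regions and of the 246840 tested regions. In D2 against B6 the D2-13B6-high regions centre on 1.04 and all regions on -0.01, whereas in B6-13D2 against B6 the medians are -0.13 and -0.01.

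With the D2 interval on the B6 background, these regions had levels close to or slightly below those of B6. For B6-13D2 against B6, edgeR called 3 of the 8020 higher, with 0.139% of all tested regions called, and 12 lower, with 0.335% of all tested regions called. At an unadjusted p under 0.05 there were 175 higher and 703 lower, or 878 of 8020, against 18455 of all 246840 tested regions. The B6-13D2 mean exceeded the B6 mean in 36.6% of D2-13B6-high regions and in 48.7% of all regions on the same chromosomes. The median log2 fold change was -0.13, compared with -0.01 over all tested regions. DESeq2 called 0 higher and 3 lower. The 15 calls became 4 without B6-13D2 replicate 1, 6 without B6-13D2 replicate 2, 6 without B6 replicate 3 and 7 without B6 replicate 2. An intronic region near Cdk8, a kinase of the Mediator complex, had 3.52, 3.75 and 4.55 CPM in B6 and 1.70 and 1.81 CPM in B6-13D2. It was lower in B6-13D2 by a log2 fold change of -1.16 (SE 0.26, edgeR adjusted p = 0.00912), while D2-13B6 had 18.2 ± 1.72 CPM there (SD, n = 3). That call was lost with a minimum fold of 1.5, without B6 replicate 3 and without either B6-13D2 library. Near Htr1b, a serotonin receptor gene, a region had 0.513, 0.724 and 0.422 CPM in B6 and 1.90 and 1.12 CPM in B6-13D2 (edgeR log2 fold change 1.49, adjusted p = 0.0326), and the call was lost with DESeq2, with a minimum fold of 1.5, with only the libraries of both lines, and without B6 replicates 1 or 3 or B6-13D2 replicate 1. One region 238122 bp from Stmn2 had 7, 11 and 9 counts in B6 and none in either B6-13D2 library, which is at least 3.02-fold lower when B6-13D2 is set at 3 counts per library (edgeR adjusted p = 0.00732). It was not called with DESeq2 or without either B6-13D2 library, and it had no value in the fit with only the libraries of both lines.

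The 8 named regions with the highest ratios lay in introns or between genes. An intergenic region at chr7:98514430-98514657, 20208 bp from Lrrc32, had 0.147, 0.263 and 0.797 CPM in B6, 0.350 and 0.585 CPM in B6-13D2, 0.503, 0.973 and 1.00 CPM in D2, and 3.3, 3.05 and 3.02 CPM in D2-13B6. Lrrc32 encodes GARP, which docks latent TGF-beta on the cell surface. As the selection required, the D2-13B6 libraries lay above the other 8, whose highest was 1.00 CPM. At chr6:17978935-17979330, 51255 bp from the gene for the secreted ligand Wnt2, the D2-13B6 libraries had 5.18, 5.22 and 4.52 CPM, and the other 8 ranged from 0.703 to 1.52 CPM. The other regions named by this rule were nearest to Utrn, Phip, Pdgfd, Hdac9, Uaca and Ubash3b. Pdgfd encodes a platelet-derived growth factor, Utrn a homologue of dystrophin and Hdac9 a histone deacetylase.

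By the D2-13B6 mean itself, which is not divided by width, the highest region was in an intron 25388 bp from the nearest protein-coding start of Camk2d, a calcium-dependent kinase gene. It had 12.8, 13.9 and 15.3 CPM in B6, 11.1 and 11.8 CPM in B6-13D2, 29.1, 37.1 and 27.9 CPM in D2, and 54.1, 72.3 and 62.2 CPM in D2-13B6. Here too the D2 libraries lay above all B6 and B6-13D2 libraries, while the gap to D2-13B6 was required by the selection. D2 exceeded B6 by 1.29 on the log2 scale (SE 0.18, edgeR adjusted p = 7.41e-08). Next by this measure came regions near Il17b, Susd1, Zfpm1 and Gpr65.

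D2-13B6-high regions were narrow and lay away from promoters. Their median width was 370 bp, against 741 bp for other regions of at least 1 CPM. The share of regions that belonged to the set was 28.2% among those narrower than 300 bp, 21.5% from 300 to 400 bp, 6.84% from 400 to 600 bp, 1.98% from 600 to 1000 bp and 0.239% above that. Introns held 48.7% of them, intergenic sequence 41.0%, and annotated promoters, within 1000 bp of any start site, 6.21%, against 20.5% of the other regions in promoters. The median distance to a protein-coding start was 46230 bp, against 19610 bp. Median GC content was 44.3% against 49.0%, and the median share of bases soft-masked as repeats was 8.71% against 14.2%. How region boundaries were set across the lines is not given in the sources used here, and its part in these widths was not tested.

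Only 148 D2-13B6-high regions lay within 1000 bp of a protein-coding start site, 0.880% of the 16816 such regions of at least 1 CPM. Fbxo34, an F-box protein gene, had 1.21, 1.25 and 0.609 CPM in B6, 0.999 and 0.957 CPM in B6-13D2, 1.89, 2.38 and 2.55 CPM in D2, and 5.41, 7.17 and 5.66 CPM in D2-13B6. This is the same graded order, and D2 exceeded B6 by 1.28 on the log2 scale (SE 0.27, edgeR adjusted p = 0.000166). The Rcan2 promoter region, at a gene for a calcineurin regulator, differed in that D2 overlapped B6: B6 had 1.54, 1.97 and 0.750 CPM, D2 had 0.981, 2.05 and 1.46 CPM, and D2-13B6 had 3.86, 5.19 and 5.07 CPM. Its log2 fold change between D2 and B6 was 0.23 (SE 0.28, edgeR adjusted p = 0.635). The Met promoter region, at the gene for the hepatocyte growth factor receptor, likewise overlapped between D2 and B6, with 0.553 to 1.30 CPM in D2, 0.141 to 1.32 CPM in B6 and 2.30 to 2.45 CPM in D2-13B6. Promoter regions of Cytip, Casp12, Srpk2, Hsd11b1 and Spink13 completed the 8 with the highest ratios.

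Of the motifs searched, AP-1 differed most in its share between the set and other regions. Matches to TGANTCA were counted on both strands in the central 300 bp of each region. They occurred in 4879 of 8020 D2-13B6-high regions (60.8%), in 13.7% of other regions of at least 1 CPM and in 13.8% of all regions on the same chromosomes. Restricting both to regions outside promoters gave 61.1% and 15.2%. The share was also higher within each class of width, by least in the narrowest: 60.03% against 37.08% below 300 bp. It was 62.5% against 28.3% from 300 to 400 bp and 63.9% against 16.0% from 400 to 600 bp. From 600 to 1000 bp it was 52.71% against 11.55%, and from 1000 bp 33.0% against 8.22%. Among other regions the share fell with width, and these were wider, so 60.8% against 13.7% is not a comparison at equal width. Of regions of at least 1 CPM with no match, 2.65% belonged to the set; the shares with 1, 2 and at least 3 matches were 18.1%, 36.9% and 40.0%. A middle base of C or G, the form Jun and Fos dimers prefer, was found in 49.6% of D2-13B6-high regions and 10.3% of other regions, and a middle A or T in 18% and 4.11%.

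**Figure D3:**
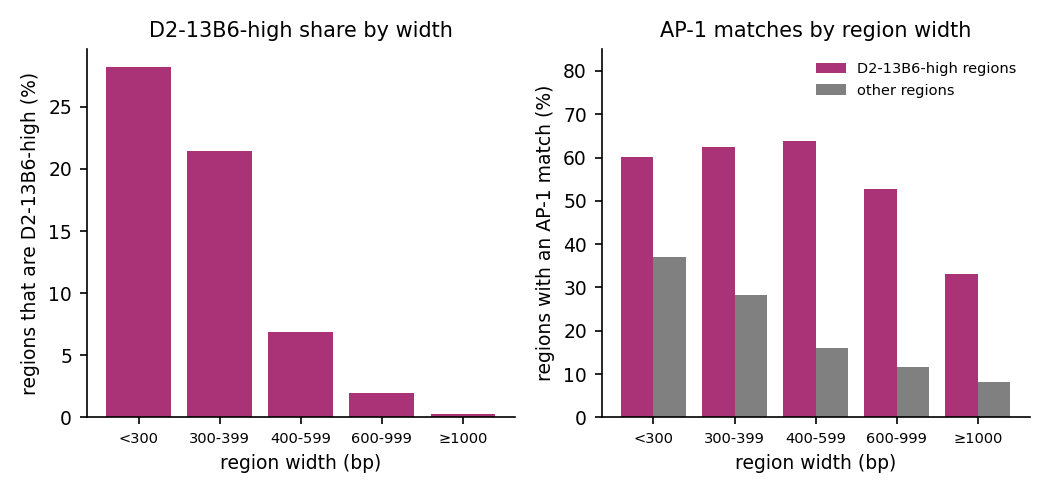
Left, the percentage of regions of at least 1 CPM that were D2-13B6-high, by region width in bp. Right, the percentage with an AP-1 match in the central 300 bp, for D2-13B6-high and other regions of the same width. The left bars fall from 28.2% to 0.239%, and on the right the D2-13B6-high bar is the taller in all 5 classes.

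The matches gathered at the centres of the regions. Within 25 bp of the centre, 23.0% of D2-13B6-high regions and 3.41% of other regions had a match. Within 50 bp the density was 4.41 matches per 1000 bp, against 0.663 in other regions, and it fell to 0.413 and 0.294 at 400 to 500 bp. By a rule made for comparison, 1775 regions were at least 2-fold lower in D2-13B6 than in each other line, and 6.48% of those held a match. A further 4639 regions were at least 2-fold higher in D2 and D2-13B6 than in both other lines, of which 65.6% held one. These shared 2368 regions with the D2-13B6-high set, which is 29.5% of the D2-13B6-high regions and 51.0% of the other set. The 4639 regions were likewise narrow and away from promoters. Their median width was 409 bp and their median distance to a protein-coding start 43200 bp, and 7.70% lay in promoters.

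**Figure D4:**
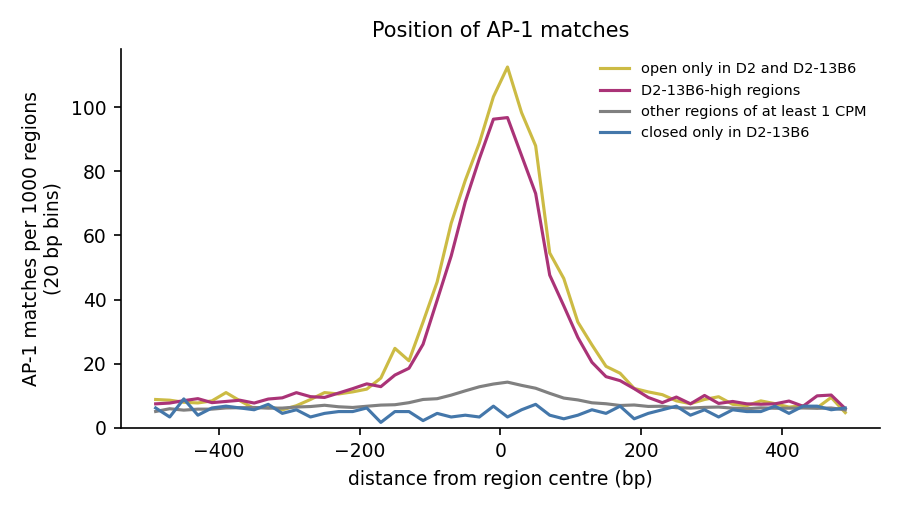
AP-1 matches per 1000 regions in 20 bp bins against distance from the region centre in bp. The lines for D2-13B6-high regions and for regions open only in D2 and D2-13B6 peak at the centre, other regions of at least 1 CPM show a low peak, and regions closed only in D2-13B6 show none.

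Motifs of TEAD and RUNX factors were also more frequent in D2-13B6-high regions. Those of several other factors, stem cell factors among them, were less frequent. The TEAD motif GGAATG was found in 31.1%, against 19.2% of other regions, and the RUNX motif TGTGGTT in 14.8%, against 7.10%. The 4639 regions higher in D2 and D2-13B6 had close shares, 29.7% for TEAD and 14.2% for RUNX. TEAD proteins are the DNA-binding partners of YAP, and RUNX factors direct bone and blood development. Regions that held all of AP-1, TEAD and RUNX matches belonged to the set in 36.3% of cases, and regions with none of these in 1.89%. Lower shares were found for KLF (GGGTGTGG, 2.93% against 5.77%), ESRRB (CAAGGTCA, 1.75% against 3.25%), the OCT octamer (ATGCAAAT, 1.83% against 2.40%) and the core of the insulator protein CTCF (CCACNAGG, 4.60% against 7.52%). In the 4639 regions the shares were again close to those of the set, at 3.19% for KLF, 1.85% for ESRRB, 2.00% for OCT and 4.91% for CTCF. The SOX motif ACAAAG differed little, at 24.4% in D2-13B6-high regions and 25.2% in other regions. Smaller differences were found for the letters AGATAA, which the GATA family binds (13.8% against 11%), FOX (TGTTTAC, 4.63% against 4.01%) and STAT (TTCCNGGAA, 1.45% against 1.16%), each more frequent in D2-13B6-high regions. Lower shares were not confined to stem cell factors. They were also found for TFAP2 (GCCNNNGGC, 6.52% against 12.1%), NRF1 (GCGCNTGCG, 0.0748% against 1.19%) and ETS (CCGGAAGT, 0.224% against 0.943%). The same held for CACGTG (3.37% against 5.63%) and NFY (GATTGG, 8.75% against 11.4%). The part of the lower GC content of the set in these shares was not tested. In all, 21 motifs were searched.

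The AP-1 match also went with the difference between D2 and B6, but this comparison is not independent of the selection. The other regions include those that fell just short of the 2-fold minimum, since 19733 regions met the rule at a ratio of at least 1.5. Among other regions of at least 1 CPM, 33.3% of those with a match were higher in D2 than in B6 by edgeR's quasi-likelihood test at an adjusted p under 0.05, against 13.5% of those without. The share was 58.9% with 2 matches and 76.7% with at least 3. Among D2-13B6-high regions it was 82.8% with a match and 76.3% without.

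D2-13B6-high regions were found on all chromosomes examined, and many lay near one another. They were 4.09% of regions of at least 1 CPM on chromosome 17 and 7.52% on chromosome 18, the extremes. Another member of the set lay within 10 kb of 23.6% of them and within 50 kb of 53.5%. Of the 2173 windows of 1 Mb with a region of at least 1 CPM, 156 held 10 or more. Such counts were not made for other regions, so whether this set is more closely grouped than open regions in general was not tested. The densest, chr16:24000001-25000000, held 27 among 98 regions, 26 of which were nearest to Lpp, which encodes a focal adhesion protein. Next were chr6:17000001-18000000 with 22 of 100, at Met and the caveolin gene Cav2, and chr12:35000001-36000000 with 18 of 60, at Snx13 and neighbours. Windows on chromosomes 18 and 4, with 18 of 63 and 18 of 68 regions, tied with the last.

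Several genes had many D2-13B6-high regions nearest to their start. Counted against regions of at least 1 CPM, Lpp had 26 of 85, Myc, a growth-promoting transcription factor gene, 22 of 88, Cited2, a transcriptional coactivator gene, 18 of 59, Pappa, a protease gene of insulin-like growth factor signalling, 17 of 29, Zfp608 16 of 65 and Bmper, a regulator of BMP signalling, 15 of 48. At Lpp the region means ran from 0.524 to 3.63 CPM in B6, 0.537 to 3.57 CPM in B6-13D2, 1.08 to 6.77 CPM in D2 and 2.26 to 17.3 CPM in D2-13B6, and 22 of the 26 were called higher in D2 than in B6 by edgeR, as were 16 of 17 at Pappa. These counts stand beside 80.3% of the whole set and 13.7% of all tested regions. Regions of Myc reached 902479 bp from its start, so nearest-gene assignment there says little about a target. Beyond the leading 6 came Foxp1 with 14 of 79, Ets1 with 13 of 42 and Rbms3 with 13 of 60. In total 3860 protein-coding genes had at least 1 such region, and 2097 of these had exactly 1.

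Genes of fibroblasts and connective tissue had the highest share among the 14 gene lists examined. Of the 289 regions of at least 1 CPM nearest to genes of the embryonic fibroblast list, 60 (20.8%) were D2-13B6-high, against 5.65% of all regions. They lay near 18 of the list's 25 genes with a region. Postn, a matrix protein gene, had 6 of 9, the fibrillar collagen gene Col3a1 6 of 13, the proteoglycan gene Dcn 6 of 14, Fn1, encoding fibronectin, 6 of 33 and Col5a1 7 of 31. A region 76094 bp from Col5a1, with 2 AP-1 matches in its printed sequence, had 1.10, 1.51 and 1.64 CPM in B6, 1.30 and 0.744 CPM in B6-13D2, 1.89, 3.52 and 2.66 CPM in D2, and 7.25, 8.90 and 8.74 CPM in D2-13B6. Another, 10072 bp from Acta2, the smooth muscle actin gene, had 1.10 to 2.17 CPM in B6, 3.26 to 4.33 CPM in D2 and 9.15 to 11 CPM in D2-13B6. D2 was above B6 in both. By edgeR 52 of the 60 were called higher in D2 than in B6 at an adjusted p under 0.05, near the 80.3% of the whole set, against 13.7% of all tested regions.

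Promoters of fibroblast and stem cell markers also differed in D2-13B6. Summed over the 8 of 10 fibroblast markers with a promoter region, accessibility was 104 to 108 CPM in B6, 92.6 to 99.1 CPM in B6-13D2, 106 to 117 CPM in D2 and 141 to 160 CPM in D2-13B6. Of these 8, 6 were higher in every D2-13B6 library than in every other library, while Thy1 and Postn overlapped. The Postn promoter mean in D2-13B6, 1.04 CPM, was below those of B6 (1.31 CPM) and B6-13D2 (1.39 CPM) and above that of D2 (0.878 CPM). The share of all promoter regions with D2-13B6 libraries wholly above or below the rest was not counted. None was at 0 and none was itself a D2-13B6-high region; Col3a1 and Lum had no promoter region. Col1a1, on chromosome 11, had 15.5 ± 1.08 CPM in B6 (SD, n = 3) and 31.5 ± 1.47 CPM in D2-13B6 (SD, n = 3), while chromosome 11 as a whole took 7.81% of counts in B6 and 8.77% in D2-13B6. The 8 embryonic stem cell markers summed to 373 to 389 CPM in B6, 382 to 386 CPM in B6-13D2, 327 to 343 CPM in D2 and 212 to 237 CPM in D2-13B6. All of them but Klf4 were lower in every D2-13B6 library than in every other. The median of other regions of at least 1 CPM was also lower in D2-13B6, at 2.55 CPM against 3.11 CPM in B6 and 2.86 CPM in D2. Pou5f1 had 94.9 ± 8.61 CPM in B6 and 69.5 ± 7.74 CPM in D2 (SD, n = 3 each). In D2-13B6 it had 39.1 ± 4.99 CPM (SD, n = 3). The part of the stem cell and fibroblast markers in the D2-13B6-high regions was not tested. In such bulk libraries a change in the share of cells and a change in accessibility per cell cannot be told apart.

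**Figure D5:**
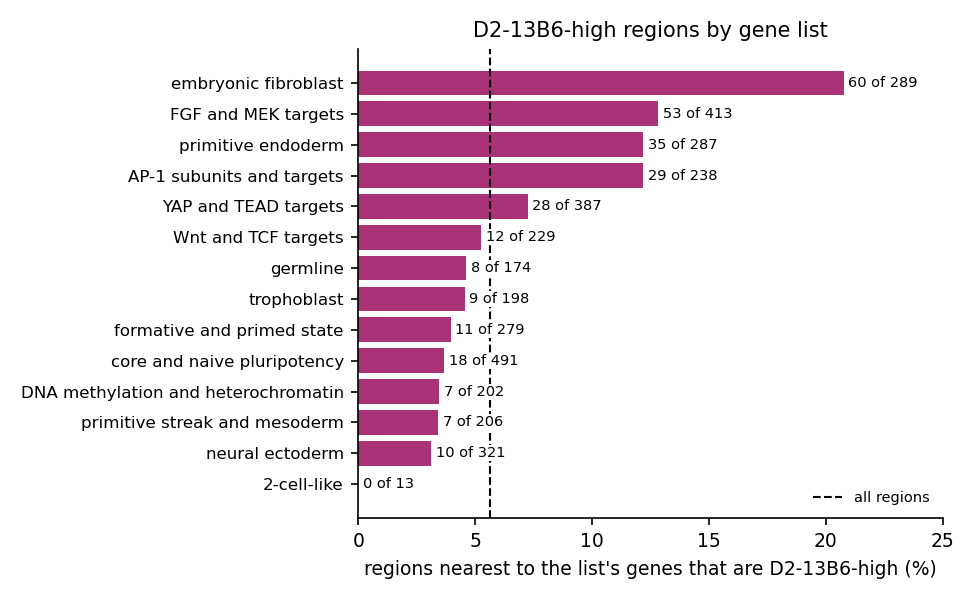
Percentage of regions of at least 1 CPM nearest to the genes of each list that were D2-13B6-high, with the numbers printed beside the bars and a dashed line at the 5.65% of all regions. The embryonic fibroblast list has the longest bar, 20.8%, and the 2-cell-like list has none of 13.

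Growth factor, endoderm and AP-1 lists followed. Of regions nearest to FGF and MEK target genes, 53 of 413 (12.8%) were D2-13B6-high, with 22 at Myc, 10 at the signalling inhibitor gene Spry2, and 6 each at the phosphatase gene Dusp6 and the receptor gene Fgfr2. The primitive endoderm list had 35 of 287 (12.2%), of which 9 were at the endocytic receptor gene Cubn and 5 each at Foxa2 and Col4a1. Promoters of its 6 markers went in both directions, with 2 higher in all D2-13B6 libraries and 2 lower. Pdgfra, among the higher ones, was also counted as a fibroblast marker. The list of AP-1 subunits and targets had 29 of 238 (12.2%), including 8 each at the cell surface receptor gene Cd44 and the chromatin protein gene Hmga2 and 6 at Fosl2, a Fos family gene. A region in an intron 19146 bp from Jun had 1.5, 1.45 and 2.20 CPM in B6, 1.15 and 1.28 CPM in B6-13D2, 2.77, 4.41 and 3.63 CPM in D2, and 8.34, 9.53 and 9.22 CPM in D2-13B6. Targets of YAP and TEAD had 28 of 387 (7.24%), 7 of which were at Ccn2, a matrix protein gene.

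The remaining lists lay near or below the share of all regions. Core and naive pluripotency genes had 18 of 491 (3.67%), of which 6 were near Klf4 and none near Pou5f1, Nanog or Esrrb. Formative and primed state genes had 11 of 279 (3.94%), neural ectoderm genes 10 of 321 (3.12%), primitive streak and mesoderm genes 7 of 206 (3.4%), trophoblast genes 9 of 198 (4.55%) and Wnt and TCF targets 12 of 229 (5.24%). Germline genes had 8 of 174 (4.60%) and genes of DNA methylation and heterochromatin 7 of 202 (3.47%). Marker promoters of trophectoderm, neural and mesoderm lineages were lower in all D2-13B6 libraries for 4 of 5, 3 of 4 and 2 of 4 genes, and higher for none. The share of all promoters that were lower in this way was not counted. Without D2-13B6 replicate 2, the rule kept 3.8% of all regions of at least 1 CPM. The fibroblast list then had 40 of 297 regions (13.5%), the highest share of the 14, the primitive endoderm list 25 of 311 (8.04%), FGF and MEK targets 34 of 437 (7.78%), and AP-1 subunits and targets 18 of 245 (7.35%). The other 10 lists lay between 0% and 5.58%.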

How the data were processed

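The deposited table holds whole-number counts per region for each of the 11 libraries, with no normalization; per the file headers, duplicate and mitochondrial reads had been removed before counting. Per the submitters' processing notes, the build was mm10 (GRCm38) and the tools were Trimmomatic 0.39, BWA 0.7.5, Picard 2.0.1, MACS 1.4.2, bedtools 2.9.2 and edgeR 3.34.1, with no roles given. Whether alignments were shifted for the transposase, and how regions of the lines were merged, are not given in the sources used here. Coordinates are as the table lists them.

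Members, gene lists, markers and motifs were chosen with earlier results of these data known. CPM used each column's total. Lines were compared with edgeR 4.0.16 in R 4.3.3: the quasi-likelihood test with TMM, filterByExpr, robust fitting, 1 coefficient per line over all 11 libraries, and Benjamini-Hochberg adjustment over 246840 regions, called at 0.05. All 8020 selected regions passed this filter on low counts. The test was checked on simulated data. DESeq2 1.42.0, other scalings, filters, a minimum fold, the replicate number as a block, and leaving out each library were alternatives. Depth was 15198496 to 43042955 counts per library. Floors of 3 counts cover counting error only, while SEs and p-values of the edgeR fit include the spread between libraries of a line.

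Nearest genes are the nearest protein-coding start sites of GENCODE M21, and promoters lie within 1000 bp of a start. Motifs were matched by letters on both strands of GRCm38 in the central 300 bp. The 14 gene lists covered core and naive pluripotency, formative and primed state, primitive endoderm, primitive streak and mesoderm, neural ectoderm, trophoblast, embryonic fibroblast, YAP and TEAD targets, AP-1 subunits and targets, FGF and MEK targets, Wnt and TCF targets, 2-cell-like, DNA methylation and heterochromatin, and germline genes. Named regions were the 8 with the highest ratio at a D2-13B6 mean of at least 2 CPM and at most 1 per gene, the 5 with the highest D2-13B6 mean, the 8 protein-coding promoter regions with the highest ratio, up to 3 per gene list, the 2 just inside and the 2 just outside the 2-fold minimum, and the 2 called in each direction with the smallest p in each comparison. The 6 genes and the 3 windows with most members were also named.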

Additional observations from a re-analysis of the deposited data

How the results depend on the processing

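Of 19 alternatives to the rule, 15 kept the number of D2-13B6-high regions within 1.5 times 8020. The number was 14348 with TMM-scaled totals, 16619 with DESeq2 size factors, 19733 at a ratio of at least 1.5 and 89 at a ratio of at least 3. Leaving out 1 library gave 5705 (without D2-13B6 replicate 2) to 10051 (without D2 replicate 2). The share with an AP-1 match lay between 54.4% and 62.1% in all of these. The number called in D2 against B6, 6440, was 3008 with a minimum fold of 1.5, 5270 to 6205 with 1 library left out, and within 1.5 times under the others; none was called lower in any. The 15 calls in B6-13D2 against B6 became 24 with total counts, 1 with a minimum fold of 1.5, 23 with only the libraries of both lines and 3 with DESeq2, and 4 to 20 with 1 library left out, lowest without B6-13D2 replicate 1. They were 7 without B6 replicate 2, 6 without B6 replicate 3 and 6 without B6-13D2 replicate 2. The causes of these shifts were not tested. None of the 6 regions named for the smallest p-values, for which the alternatives were run, reversed its direction.

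Libraries share only replicate numbers: deviations of same-numbered B6 and D2 libraries correlated at 0.0048 to 0.059, so the numbers do not pair them. With the replicate block, 6476 regions were called in D2 against B6 and 26 in B6-13D2 against B6.

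At 3 counts per library a region stands at 0.0697 to 0.197 CPM, which limits the precision of the lowest values.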

Other observations

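The chromosomes left out by the selection also held regions that met its other criteria. On chromosome 13, which carries the exchanged interval, these were 464 of 6281 regions of at least 1 CPM in D2-13B6 (7.39%), and on chromosome 11 they were 566 of 12623 (4.48%). Chromosome 11 took 7.62% ± 0.312 of all counts in D2 (SD, n = 3) and 8.77% ± 0.157 in D2-13B6 (SD, n = 3). For chromosome 13 the values were 4.18% ± 0.0476 in D2 and 3.63% ± 0.0878 in D2-13B6 (SD, n = 3 each).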
